A study of Danio rerio with 8 samples.

Results

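Ionocytes are the salt-transporting cells of the fish skin. The genes described here are 8 that mark or build them in zebrafish: the transcription factor genes foxi3a, foxi3b and gcm2, and the carbonic anhydrase, channel and transporter genes ca15a, rhcgb, trpv6, slc12a10.2 and slc4a1b. They were chosen by symbol, with upper and lower case treated alike, or by the capitals symbol without its paralog letter where the name table holds no other. This gave 10 gene identifiers of the 24345 in the data. Of the 8 symbols, 6 matched 1 identifier each. The other symbols, rhcgb and slc4a1b, met the capitals names RHCG and SLC4A1, each carried by 2 identifiers. The table does not say which of these is the paralog named, so both are given, with the identifier beside the symbol.

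RNA was sequenced from the distal trunk of Tropical 5D wild-type zebrafish, cut at the gap in the pigment near the tail base. The BkF groups were exposed to 12 µM of the polycyclic aromatic hydrocarbon benzo[k]fluoranthene (BkF), and the control groups to 1% DMSO, from 6 to 8 hours post fertilization (hpf) until tissue was taken at 48, 60, 72 or 96 hpf. All groups were of the same line, had lost their chorions to pronase at 4 hpf and were held in the dark at 28.5 °C. Each of the 8 samples is the authors' mean of normalized counts over 4 biological replicates of 50 animals, so no value below has a replicate error, and neighbouring values cannot be judged against one.

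In zebrafish larvae, ionocytes arise from epidermal precursors in which Foxi3 factors are switched on while Notch signalling holds back neighbouring cells. They mature into types with separate tasks: HR cells secrete acid and take up sodium, NaR cells take up calcium, and NCC cells take up sodium and chloride. Before gills work, the skin of yolk and trunk carries most of these cells, and the freshwater larva depends on them to replace the salt it loses.

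Summed normalized counts were 76456319 to 78634021 in the BkF samples and 87750209 to 89533865 in the controls, and the read depth behind them is unknown. The effect of BkF was taken over the 4 time points on log2(normalized count + 1) with limma, with time point as a block, in 21950 genes with a mean of 10 or more. Its p-values, adjusted after Benjamini and Hochberg with a threshold of 0.05, measure how steady the ratio was over time and not the spread between animals or pools. SD is that of the log2 ratio over the 4 time points. In whole tissue, fewer ionocytes and less RNA per ionocyte cannot be told apart.

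All 10 identifiers, among them 2 of RHCG and 2 of SLC4A1, were tested, and 8 were lower and 2 higher in BkF tissue. The members were chosen with earlier results of these data known, so the counts below describe them and are no independent test. Over all tested genes, 33.9% passed the same test, 17.4% lower and 16.5% higher. At least 2-fold lower as well were 6 of the 10, and 3.84% of tested genes. In 8 of the 10 the BkF value was below the control value at each of the 4 times, as in 26.9% of tested genes. In 6 of the 10, every BkF value lay below every control value, which held for 13.8% of tested genes. The median effect over all tested genes was -0.01 (log2). 3 of the 10 (foxi3a, GCM2 and TRPV6) averaged under 10 in BkF tissue and entered the test through their control values. All 3 are among the 6 that were at least 2-fold lower.

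**Figure D1:**
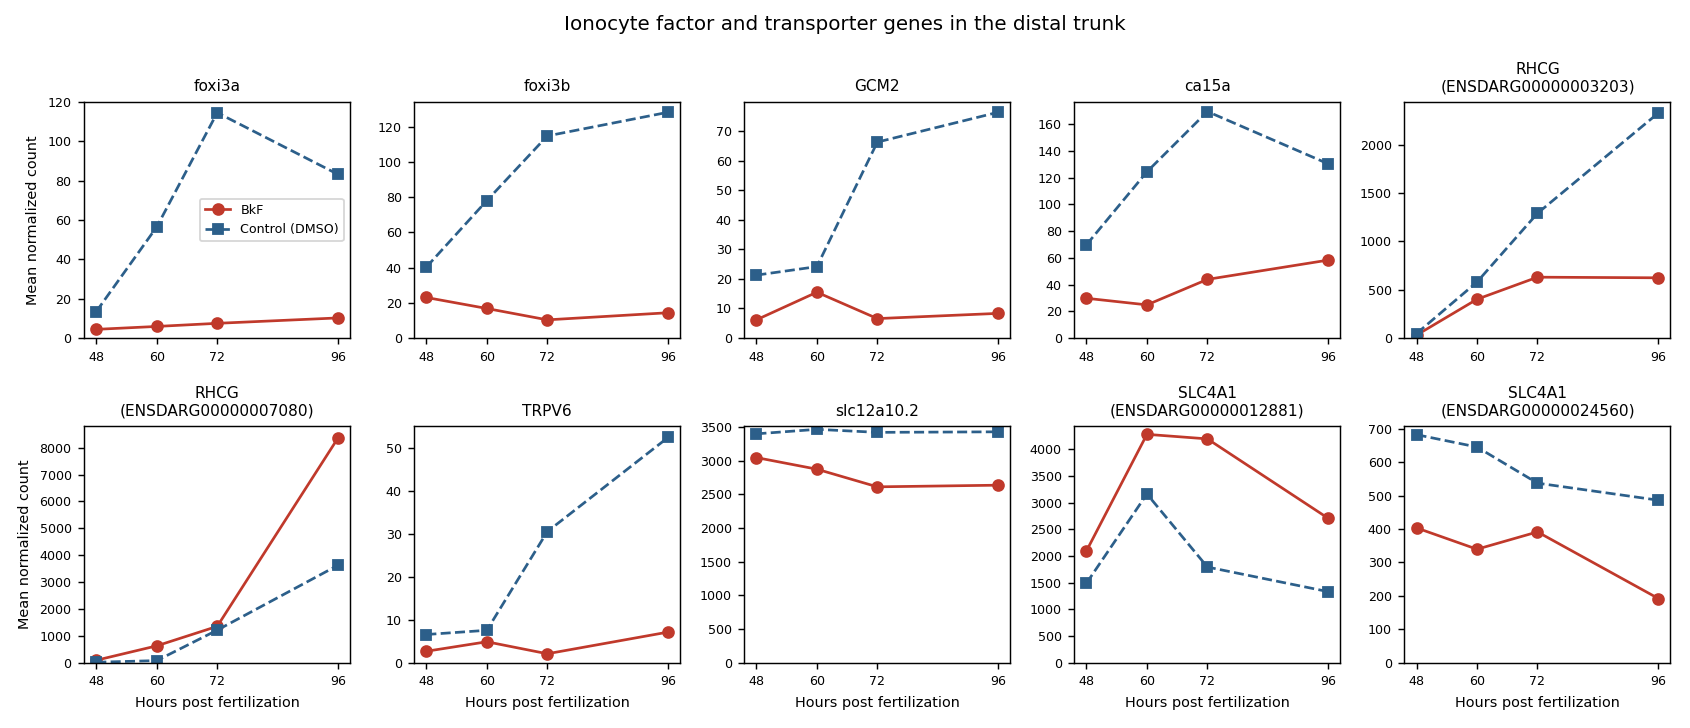
Mean normalized count (y axis, from 0) against hours post fertilization (x axis) for the 10 identifiers, with BkF as filled circles and solid lines and control (DMSO) as squares and dashed lines. Each point is the authors' mean over 4 replicates. The BkF lines of foxi3a, foxi3b, GCM2 and TRPV6 stay near the bottom of their panels at 72 and 96 hpf, while the RHCG (ENSDARG00000007080) line ends at 8374 in BkF tissue and at 3628 in control tissue.

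The forkhead genes foxi3a and foxi3b encode the factors that commit zebrafish epidermal cells to the ionocyte fate. Normalized counts of foxi3a were 4.40, 5.88, 7.47 and 10.22 in BkF tissue, in the order of the time points, against 13.5, 56.5, 114.6 and 83.2 in control tissue. In foxi3a the highest BkF value lay below the lowest control value, and BkF tissue held 32.7, 10.4, 6.51 and 12.3% of the control level at the 4 times. The gene fell by 2.79 ± 0.41 (log2, SE; SD 0.99; limma, adjusted p = 0.00494).

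For foxi3b, the counts were 23.0, 16.8, 10.3 and 14.4 in BkF tissue and 40.3, 78.1, 114.8 and 128.3 in control tissue. Control values were higher at each later time, and the lowest 3 of the 8 samples were the BkF ones at 60, 72 and 96 hpf. The level relative to control was 57.1% at 48 hpf, 21.5% at 60 hpf, 8.98% at 72 hpf and 11.2% at 96 hpf. This gene fell by 2.34 ± 0.44 (log2, SE; SD 1.16; limma, adjusted p = 0.0113).

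GCM2, the only identifier of gcm2, encodes a glial cells missing factor that zebrafish HR cells need to differentiate and that mammals use in the parathyroid. It had 6.15, 15.5, 6.57 and 8.33 in BkF tissue and 21.3, 24.1, 66.3 and 76.4 in control tissue. The groups did not overlap, and the gap was widest at the later times, at 9.91% of control at 72 hpf and 10.9% at 96 hpf, with 28.9% at 48 hpf and 64.2% at 60 hpf. It fell by 2.11 ± 0.48 (log2, SE; SD 1.22; limma, adjusted p = 0.0204). Without the 72 hpf samples the effect was -1.77 (adjusted p = 0.0849), and without those of 96 hpf it was -1.80 (adjusted p = 0.0519).

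Among the HR cell genes, ca15a encodes a carbonic anhydrase anchored on the cell surface facing the water, which takes part in acid secretion. Its counts were 29.7, 24.8, 43.8 and 58.3 in BkF tissue and 69.7, 124.3, 169.3 and 130.2 in control tissue. No BkF value reached the lowest control value, and BkF tissue held 42.6, 19.9, 25.9 and 44.8% of the control level. It fell by 1.64 ± 0.24 (log2, SE; SD 0.56; limma, adjusted p = 0.00488). The level at 96 hpf over that at 48 hpf was 1.96 in BkF tissue and 1.87 in control tissue.

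Rhcg proteins are membrane channels for ammonia, and rhcgb is the HR cell member of the family in zebrafish. RHCG (ENSDARG00000003203) had 29.9, 401.4, 630.1 and 623.6 in BkF tissue against 46.2, 579.8, 1292 and 2331 in control tissue. It was lower in BkF tissue at each time, by most at 96 hpf, where BkF tissue held 26.7% of the control level. Both groups were lowest at 48 hpf, and their ranges overlapped. The effect was -1.02 ± 0.23 (log2, SE; SD 0.63; limma, adjusted p = 0.0204), and -1.01 without the 72 hpf samples (adjusted p = 0.0806).

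RHCG (ENSDARG00000007080) went the other way, with 89.3, 625.5, 1351 and 8374 in BkF tissue against 15.5, 75.6, 1211 and 3628 in control tissue. BkF tissue was higher at each time, at 577 and 827% of control at 48 and 60 hpf, 112% at 72 hpf and 231% at 96 hpf. The effect was 1.71 ± 0.46 (log2, SE; SD 1.29; limma, adjusted p = 0.0328). It was 1.47 without the 48 hpf samples (adjusted p = 0.0962) and 1.27 without those of 60 hpf (adjusted p = 0.101). The direction of rhcgb itself is therefore not settled here, since the 2 identifiers of its name had opposite effects.

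The name SLC4A1 covers anion exchangers that swap chloride for bicarbonate, of which one serves red blood cells and slc4a1b the inner membrane of zebrafish HR cells. SLC4A1 (ENSDARG00000024560) had 403.5, 339.6, 391.5 and 192.0 in BkF tissue and 682.6, 645.7, 537.5 and 486.4 in control tissue. Its groups did not overlap, and it fell by 0.87 ± 0.15 (log2, SE; SD 0.37; limma, adjusted p = 0.00773). Its control level at 96 hpf was 0.713 times that at 48 hpf, and besides it this ratio was below 1 in the other SLC4A1 identifier alone of the 10.

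SLC4A1 (ENSDARG00000012881) had 2095, 4280, 4195 and 2704 in BkF tissue and 1490, 3162, 1792 and 1330 in control tissue. Both groups peaked at 60 hpf, and the BkF value was the higher one at each time, with an effect of 0.79 ± 0.14 (log2, SE; SD 0.39; limma, adjusted p = 0.00974). The gene whose pattern over the 8 samples was most like it was the alpha globin gene hbae1.1 (Pearson r = 0.973), followed by hbae1.2 (0.964) and hbae1.3 (0.956). Of 8 tested erythrocyte identifiers, among them both SLC4A1 entries, 1 or 12.5% was lower and 5 or 62.5% were higher in BkF tissue (median 0.66, log2). Without the SLC4A1 entries, 4 of 6 or 66.7% were higher and none lower. Of all tested genes, 17.4% were lower and 16.5% higher. The globin gene hbae3 had 0.84 ± 0.21 (log2, SE; limma, adjusted p = 0.025), with 0.65 without 72 hpf (0.0863) and 0.71 without 96 hpf (0.0601). The heme synthesis gene alas2 had 0.83 ± 0.17 (0.0153), with 0.69 without 72 hpf (0.0623), and hbae1.1 had 0.70 ± 0.13 (0.0114). The 8 summed to 39857 to 132373 in BkF tissue and to 28997 to 88397 in control tissue, and none was at 0 in any sample. Without the 72 hpf samples 2 of the 8 were higher, and with no time block none was. Over all tested genes, 3624 were higher, with 1838 without 72 hpf and 2773 with no time block. The part of red blood cells in this result was not tested.

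The calcium channel gene of NaR cells, TRPV6, is the entry point for calcium in the fish skin. It had 2.65, 4.87, 2.07 and 7.13 in BkF tissue and 6.56, 7.54, 30.6 and 52.5 in control tissue. All these values are low. The BkF value was below the control value at each time, at 40.4, 64.5, 6.78 and 13.6% of it, and the groups overlapped because the BkF value at 96 hpf exceeded the control value at 48 hpf. The effect was -1.92 ± 0.56 (log2, SE; SD 1.34; limma, adjusted p = 0.0429). Leaving out any 1 time point ended this call, with effects of -2.21 without 48 hpf (adjusted p = 0.0526), -2.38 without 60 hpf (0.0505), -1.44 without 72 hpf (0.147) and -1.65 without 96 hpf (0.12), and a pseudocount of 10 gave -1.06 (0.058).

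The sodium-chloride cotransporter gene of NCC cells, slc12a10.2, changed least. It had 3048, 2876, 2613 and 2638 in BkF tissue and 3401, 3468, 3423 and 3431 in control tissue. Control values were nearly flat over time, and all BkF values lay below them, at 89.6, 82.9, 76.3 and 76.9% of control. It fell by 0.30 ± 0.06 (log2, SE; SD 0.11; limma, adjusted p = 0.012). The effect was -0.31 without the 60 hpf samples (adjusted p = 0.0604) and -0.27 without those of 72 hpf (0.0613). With every sample scaled to the same total, which raises the median gene by 0.18 (log2), it was -0.11 (0.16).

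**Figure D2:**
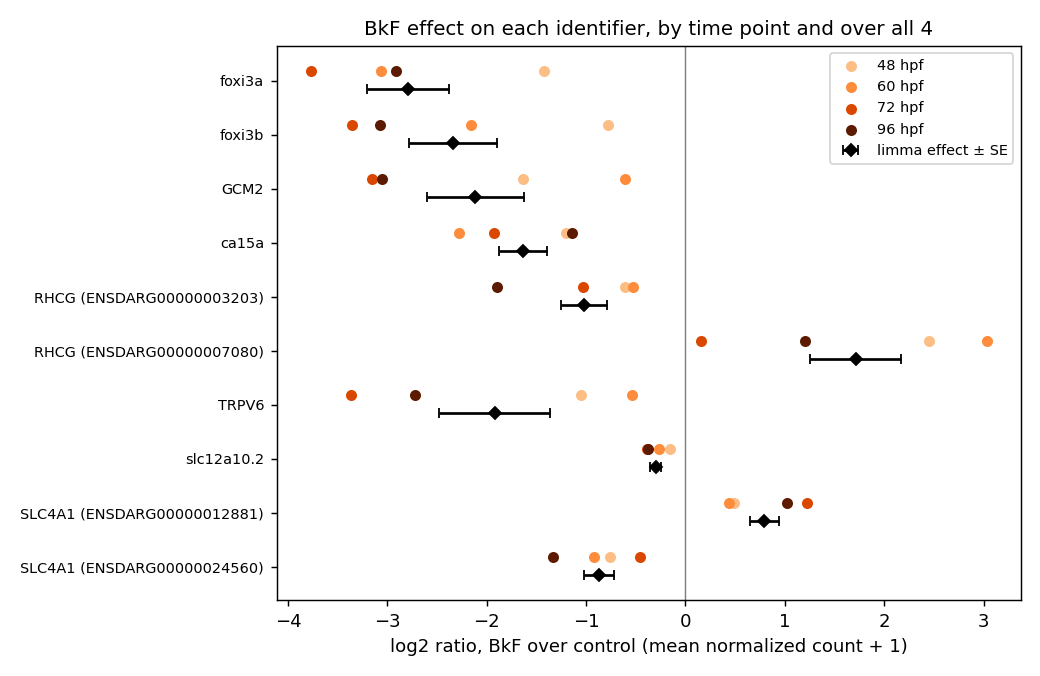
The log2 ratio of BkF over control (x axis, on mean normalized count + 1) for each of the 10 identifiers (rows). Circles from light to dark are the 48, 60, 72 and 96 hpf ratios, and black diamonds with bars are the limma effect over the 4 times ± SE. 8 diamonds lie left of 0, down to -2.79 for foxi3a, and those of RHCG (ENSDARG00000007080) and SLC4A1 (ENSDARG00000012881) lie right of it, at 1.71 and 0.79.

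Taken 1 time point at a time, with no test, the number of the 10 identifiers at least 2-fold lower in BkF tissue was 4 at 48 hpf, 3 at 60 hpf, 6 at 72 hpf and 7 at 96 hpf. The share of tested genes past that size was 4.12, 5.00, 6.27 and 8.70% at these times. At least 2-fold higher were 1 at 48, 60 and 72 hpf and 2 at 96 hpf, where the shares of tested genes were 3.64, 4.20, 4.88 and 5.29%. For foxi3a and ca15a the BkF value was at least 2-fold lower at all 4 times.

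Whether the ratio itself shifted steadily with time was tested as an interaction of BkF with hpf. None of the 10 passed (limma, adjusted p of 0.118 to 0.842), beside 3 genes or 0.0137% of all tested. At an unadjusted p under 0.05 there were 2 of the 10 and 16.6% of tested genes. The steepest were foxi3b at -1.09 ± 0.43, TRPV6 at -1.08 ± 0.66 and GCM2 at -0.99 ± 0.55 (log2 per day, SE). The foxi3b slope passed once the 96 hpf samples were left out, at -2.57 (adjusted p = 0.0431). In that setting 1719 of the 21950 tested genes passed.

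In BkF tissue, the level at 96 hpf over that at 48 hpf was 2.32 for foxi3a, 0.624 for foxi3b, 1.36 for GCM2 and 2.69 for TRPV6. The same ratio in control tissue was 6.17 for foxi3a, 3.18 for foxi3b, 3.59 for GCM2 and 8.01 for TRPV6. Both RHCG identifiers had the largest such ratios, at 20.8 in BkF tissue and 50.5 in controls for ENSDARG00000003203, and at 93.8 in BkF tissue and 234.6 in controls for ENSDARG00000007080. No common slope over both treatments passed for any of the 10 (limma, adjusted), where 1 gene or 0.00456% of all tested did. At an unadjusted p under 0.05 there were 6 of the 10 and 29.2% of tested genes. In BkF samples alone, RHCG (ENSDARG00000007080) rose by 3.11 ± 0.29 (log2 per day, SE; limma, adjusted p = 0.0167), where a rise passed for 4.33% and a fall for 6.07% of tested genes. Its slope in controls alone was 3.98 ± 0.61 (adjusted p = 0.577), where no tested gene passed.

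Across the 8 samples, the 6 genes with a single identifier were compared in pairs. Pearson r of log2(normalized count + 1) lay between 0.63 and 0.962 over their 15 pairs, and between 0.798 and 0.962 over the 10 pairs without slc12a10.2. These coefficients describe 8 samples that share the BkF difference and the time course, with foxi3a and ca15a the closest pair. Within the 4 control samples alone r ran between -0.0683 and 0.99 over the 15 pairs, and the pairs of slc12a10.2 with GCM2 and TRPV6 were at -0.0628 and -0.0683. Without slc12a10.2 it ran between 0.67 and 0.99 there. Among 4186 named genes with a mean of 50 or more and a range of at least 1 (log2), the pattern most like that of foxi3a was LRATD1 (r = 0.995), and that of foxi3b was HGD (0.992). The nearest were CHKA for GCM2 (0.966), MYOC for ca15a (0.990), LMBR1L for TRPV6 (0.969) and ccdc80l1 for slc12a10.2 (0.993). The second for GCM2 was ATP1B1 (ENSDARG00000076833), which encodes a beta subunit of the sodium pump (0.966). For the identifiers with shared names they were si:ch211-197l9.5 for RHCG (ENSDARG00000003203) at 0.990, PDK2 (ENSDARG00000059054) for RHCG (ENSDARG00000007080) at 0.979 and CCNI2 for SLC4A1 (ENSDARG00000024560) at 0.983. By Spearman rank correlation among the 4186, with ties sharing a rank, LRATD1 ranked 54, HGD 3, CHKA 23 and MYOC 7. LMBR1L ranked 1, ccdc80l1 66, si:ch211-197l9.5 16, PDK2 1, CCNI2 4 and hbae1.1 5. Which gene was nearest thus depended on the measure.

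Beyond these 10, 39 other identifiers were tested in the lists of specification, HR, NaR, NCC, anion and potassium genes. Of the 39, 11 or 28.2% were lower and 5 or 12.8% higher in BkF tissue, beside the 17.4% and 16.5% of all tested genes. With the 10 included, the counts were 19 lower and 7 higher of 49 (median -0.30, log2). They were 10 lower and 3 higher without the 60 hpf samples, 10 lower and 5 higher without those of 72 hpf, and 14 lower and 13 higher at the same total in every sample. Counts over all tested genes moved as well, from 3810 lower and 3624 higher. They were 1830 and 1664 without 60 hpf, 1972 and 1838 without 72 hpf, and 2151 and 7946 at the same total.

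**Figure D3:**
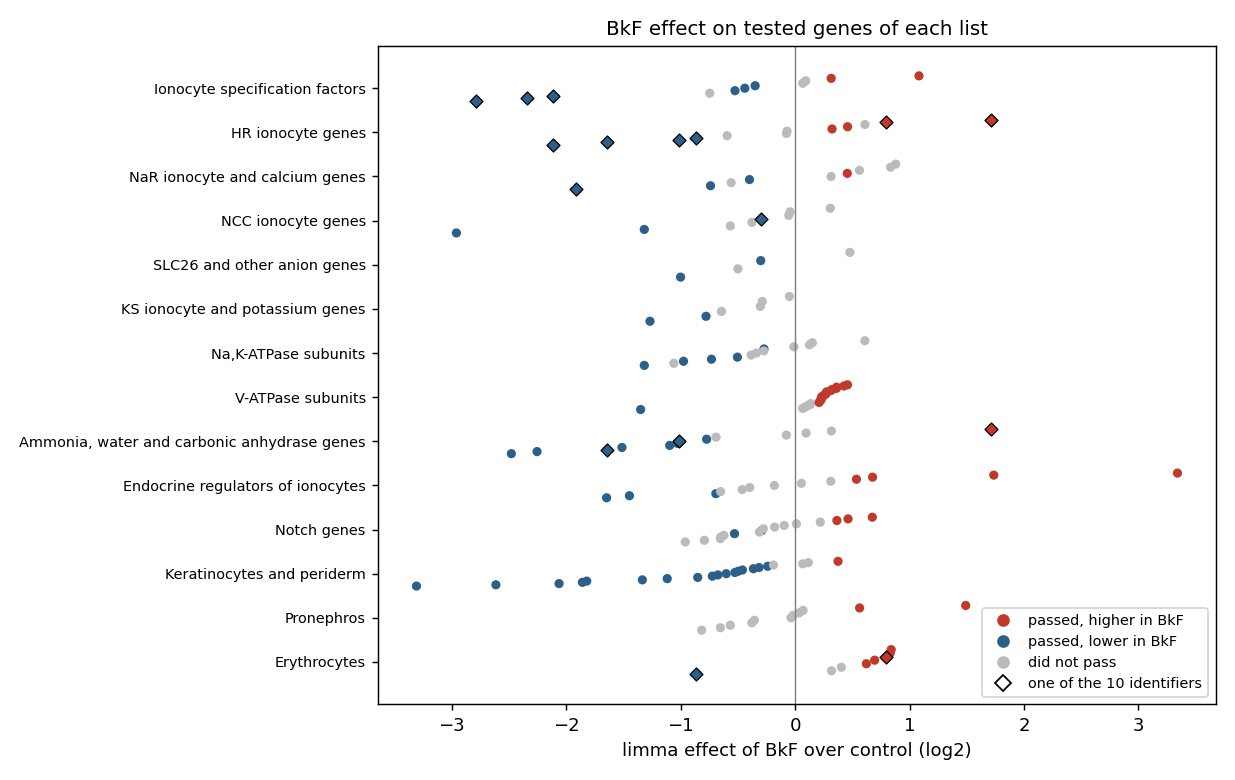
Limma effect of BkF over control (x axis, log2) for each tested gene of 14 lists (rows), with genes that passed in red (higher) and blue (lower) and the rest in grey. Diamonds are the 10 identifiers, and a gene in more than 1 list is drawn in each. Blue prevails in the row of keratinocyte and periderm genes, 17 of 21, and red in that of V-ATPase subunits, 15 of 22. Of all tested genes, 17.4% were lower and 16.5% higher.

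Among specification factors, 8 genes besides foxi3a, foxi3b and GCM2 were tested. Of these 8, 3 or 37.5% were lower and 2 or 25.0% higher, beside 17.4 and 16.5% of all tested genes. In the whole list of 11, with 2 higher, 1 was higher without the samples of 48, 60 or 72 hpf, and 4 at the same total in every sample. Over all tested genes, 3624 were higher, with 3427 without 48 hpf, 1664 without 60 hpf, 1838 without 72 hpf and 7946 at the same total. TP63, the master factor of epidermal stem cells, had -0.52 ± 0.07 (log2, SE; limma, adjusted p = 0.0039), and TFAP2A, an ectoderm factor, -0.35 ± 0.05 (0.00371). GATA3 had -0.44 ± 0.10 (0.0184) and lost its call without the 60 hpf samples (-0.45, 0.0731) or those of 72 hpf (-0.45, 0.0712). DLX3, a homeobox gene of the epidermis and its border, had 21046, 21040, 19772 and 21076 in BkF tissue and 10026, 9775, 9748 and 9593 in control tissue. It was higher by 1.08 ± 0.05 (0.000145), at a near constant ratio, and TFAP2C, a paralog of TFAP2A, was higher by 0.32 ± 0.07 (0.0222).

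Notch genes, which set the spacing of ionocytes, included 2 lower and 3 higher of 16 tested, or 12.5 and 18.8%, near the 17.4 and 16.5% of all tested genes. The median was -0.28 (log2). None was lower without the 72 hpf samples or at the same total in every sample, 1 without 60 hpf and 4 without 48 hpf. Over all tested genes, 3810 were lower, with 1972 without 72 hpf, 2151 at the same total, 1830 without 60 hpf and 3468 without 48 hpf. The ligand genes jag2b, at 0.67 ± 0.05 (limma, adjusted p = 0.000687), and jag2a, at 0.46 ± 0.07 (0.00423), were higher in BkF tissue. The ligand gene dlc had -0.53 ± 0.12 (0.018), and -0.55 without the 72 hpf samples (0.0643).

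Of NCC cell genes, 3 of 8 tested (37.5%) were lower and none higher, slc12a10.2 included, beside 17.4 and 16.5% of all tested genes. Without slc12a10.2, 2 of 7 (28.6%) were lower and none higher. At the same total in every sample 2 of the 8 were lower and 1 higher, beside 2151 and 7946 of the 21950 tested genes. The chloride channel gene clcn2c had 0, 1.96, 6.51 and 1.03 in BkF tissue and 5.57, 17.3, 24.9 and 52.0 in control tissue. The BkF value was lower at each time, and only at 72 hpf did it exceed the lowest control value. Its effect was -2.96 ± 0.55 (log2, SE; limma, adjusted p = 0.0104), and -1.35 with a pseudocount of 10. It averaged 2.37 in BkF tissue and entered the test through its control values. The sodium pump gene atp1a1a.2, whose alpha subunit zebrafish NCC cells use, had 795.3, 770.2, 643.5 and 355.7 in BkF tissue and 1746, 1312, 1562 and 1517 in control tissue. Its groups did not overlap, and it fell by 1.32 ± 0.20 (0.00568).

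Across 13 tested Na,K-ATPase subunit genes, the sodium pump that powers ionocytes, 5 or 38.5% were lower and none higher, with a median of -0.34 (log2). Of all tested genes, 17.4% were lower and 16.5% higher. At the same total 4 of the 13 were lower and 2 higher, beside 2151 and 7946 of the 21950 tested genes. ATP1B1 (ENSDARG00000076833) had 267.7, 328.9, 345.3 and 310.4 in BkF tissue and 462.6, 490.6, 736.7 and 846.9 in control tissue, with no overlap. It fell by 0.97 ± 0.15 (log2, SE; limma, adjusted p = 0.0057), and ATP1B2, another beta subunit gene, fell by 0.73 ± 0.10 (0.00345). The other identifier of the same beta subunit name, ATP1B1 (ENSDARG00000013144), did not pass, at -0.01 ± 0.05. The alpha subunit gene atp1a1a.3 did not pass either (-1.06 ± 0.37, 0.0733), with 145.3, 145.2, 183.3 and 131.1 in BkF tissue and 146.5, 201.9, 497.9 and 656.0 in control tissue.

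HR cells also carry the sodium-proton exchanger gene slc9a3.2, which had 34.8, 28.6, 30.7 and 14.4 in BkF tissue and 27.8, 35.4, 42.4 and 58.1 in control tissue. BkF tissue was the higher one at 48 hpf and the lower one at the later times, and the effect did not pass (-0.59 ± 0.38, log2, SE; limma, adjusted p = 0.275). Of 6 HR genes tested besides the 10 identifiers, none was lower and 2 or 33.3% were higher, beside 17.4 and 16.5% of all tested genes. Both higher ones were named ATP6V1A, and the carbonic anhydrase gene ca2 had -0.08 ± 0.26 (0.842).

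The proton pump of HR cells, the V-ATPase, works in lysosomes of every cell as well. Of its 22 tested subunit genes 15 or 68.2% were higher and 1 or 4.55% was lower, with a median of 0.23 (log2). Of all tested genes, 16.5% were higher and 17.4% lower. Without the 60 hpf samples 2 of the 22 were higher, and without those of 72 hpf 3. Over all tested genes, 3624 were higher, with 1664 without 60 hpf and 1838 without 72 hpf. ATP6V1A (ENSDARG00000034534) encodes the catalytic subunit and had an effect of 0.32 ± 0.06 (SE; limma, adjusted p = 0.00802), with 0.29 without 60 hpf (0.0554). ATP6V1A (ENSDARG00000076318) had 0.46 ± 0.13 (0.0429), with 0.44 without 60 hpf (0.136), 0.32 without 72 hpf (0.128) and 0.45 without 96 hpf (0.0827). The accessory subunit gene atp6ap1b had 0.43 ± 0.06 (0.00374). The lower one was ATP6V1C2, a C subunit isoform that mammals express in few tissues, with 10.7, 23.6, 30.8 and 30.8 in BkF tissue and 12.3, 56.5, 122.0 and 129.0 in control tissue. It was lower at each time, with an effect of -1.35 ± 0.35 (0.0298). This call was lost without 60 hpf (-1.39, 0.0949), 72 hpf (-1.15, 0.123) or 96 hpf (-1.12, 0.0768).

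For NaR cells, 3 of 9 tested calcium genes (33.3%), TRPV6 among them, were lower and 1 (11.1%) was higher, beside 17.4 and 16.5% of all tested genes. Without TRPV6, 2 of 8 (25.0%) were lower and 1 (12.5%) was higher. The median of all 9 was above 0, at 0.31 (log2). None was lower without the 60 hpf samples and 1 without those of 72 or 96 hpf, and 4 were higher at the same total. Over all 21950 tested genes, 3810 were lower, with 1830 without 60 hpf, 1972 without 72 hpf and 3480 without 96 hpf. The higher ones were 3624 in the main fit and 7946 at the same total. Besides TRPV6, the largest effect past the threshold was that of the calcium pump gene atp2b1b, at -0.74 ± 0.20 (SE; limma, adjusted p = 0.0338). It was -0.69 without 60 hpf (0.134), -0.77 without 72 hpf (0.0973) and -0.60 without 96 hpf (0.0729). ATP2B1, another calcium pump gene of the plasma membrane, had -0.40 ± 0.07 (0.00887), and -0.39 without the 60 hpf samples (0.0516). IGFBP5 (ENSDARG00000025348), an identifier of the name of the NaR marker igfbp5a, was higher by 0.46 ± 0.07 (0.00563). The other identifier of that name, IGFBP5 (ENSDARG00000039264), did not pass, at 0.83 ± 0.34 (0.105), and which is igfbp5a is not settled. The calcium-sensing receptor gene CASR was under the filter, at 0 to 1.97 in BkF tissue and 1.11 to 3.11 in control tissue.

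Of 4 anion identifiers, 2 or 50.0% were lower, beside 17.4% of all tested genes, and none without the 60 hpf samples. The chloride-bicarbonate exchanger name slc26a6 is carried, in either case, by 2 of them. The entry slc26a6 (ENSDARG00000097292) had -1.0 ± 0.19 (log2, SE; limma, adjusted p = 0.0107), and an adjusted p of 0.0543 without the 60 hpf samples. The entry SLC26A6 (ENSDARG00000054127) did not pass, at 0.48 ± 0.35 (0.328). The chloride channel gene CFTR had -0.30 ± 0.06 (0.0147), with -0.32 without 60 hpf (0.062) and -0.26 without 72 hpf (0.0725). KCNJ1 is a name of inward rectifier potassium channels that covers the marker of KS ionocytes, and which identifier is that marker is not settled. Of 6 tested KCNJ1 identifiers 2 or 33.3% were lower, and none without the samples of 60 or 72 hpf. Over all tested genes, 3810 were lower, with 1830 without 60 hpf and 1972 without 72 hpf. The most abundant, KCNJ1 (ENSDARG00000002666), did not pass, at -0.05 ± 0.14 (0.806). It had 158.8 to 334.4 in BkF tissue and 217.4 to 283.3 in control tissue. KCNJ1 (ENSDARG00000090866) had 11.6, 5.90, 9.29 and 11.3 in BkF tissue and 23.3, 17.3, 30.1 and 25.9 in control tissue, with no overlap. It averaged 9.53 in BkF tissue and entered the test through its control values, with an effect of -1.27 ± 0.27 (0.0154), -1.22 without 60 hpf (0.0678) and -1.16 without 72 hpf (0.0767). KCNJ1 (ENSDARG00000088484) had -0.78 ± 0.20 (0.0282), and leaving out any 1 time point ended its call (-0.83 without 48 hpf, 0.0534; -0.87 without 60 hpf, 0.075; -0.69 without 72 hpf, 0.119; -0.72 without 96 hpf, 0.0656). These identifiers may share reads among near copies, so their single values are uncertain.

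The 13 tested ammonia, water and carbonic anhydrase genes, ca15a and the RHCG identifiers included, had a median of -1.02 (log2). The 10 tested besides those had a median of -0.90. Of these 10, 6 or 60.0% were lower and none higher, beside 17.4 and 16.5% of all tested genes. RHBG, which encodes an ammonia channel of the skin, had 206.4, 701.4, 925.6 and 700.6 in BkF tissue and 976.8, 3175, 4490 and 3519 in control tissue. Both groups were lowest at 48 hpf and highest at 72 hpf without overlap, and RHBG fell by 2.25 ± 0.06 (log2, SE; limma, adjusted p = 2.14e-05).

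Among the carbonic anhydrases, the cytosolic enzyme gene CA7 had 7.17, 5.92, 23.3 and 12.4 in BkF tissue and 23.3, 60.4, 89.1 and 131.4 in control tissue. It fell by 2.48 ± 0.37 (log2, SE; limma, adjusted p = 0.00494), and the secreted enzyme gene CA6 had -1.51 ± 0.09 (0.000376). The channel gene for water and glycerol AQP3 had 22578, 33253, 36658 and 33427 in BkF tissue and 48727, 69557, 79172 and 71447 in control tissue. BkF tissue thus held less at each time, with an effect of -1.10 ± 0.05 (0.000182).

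**Figure D4:**
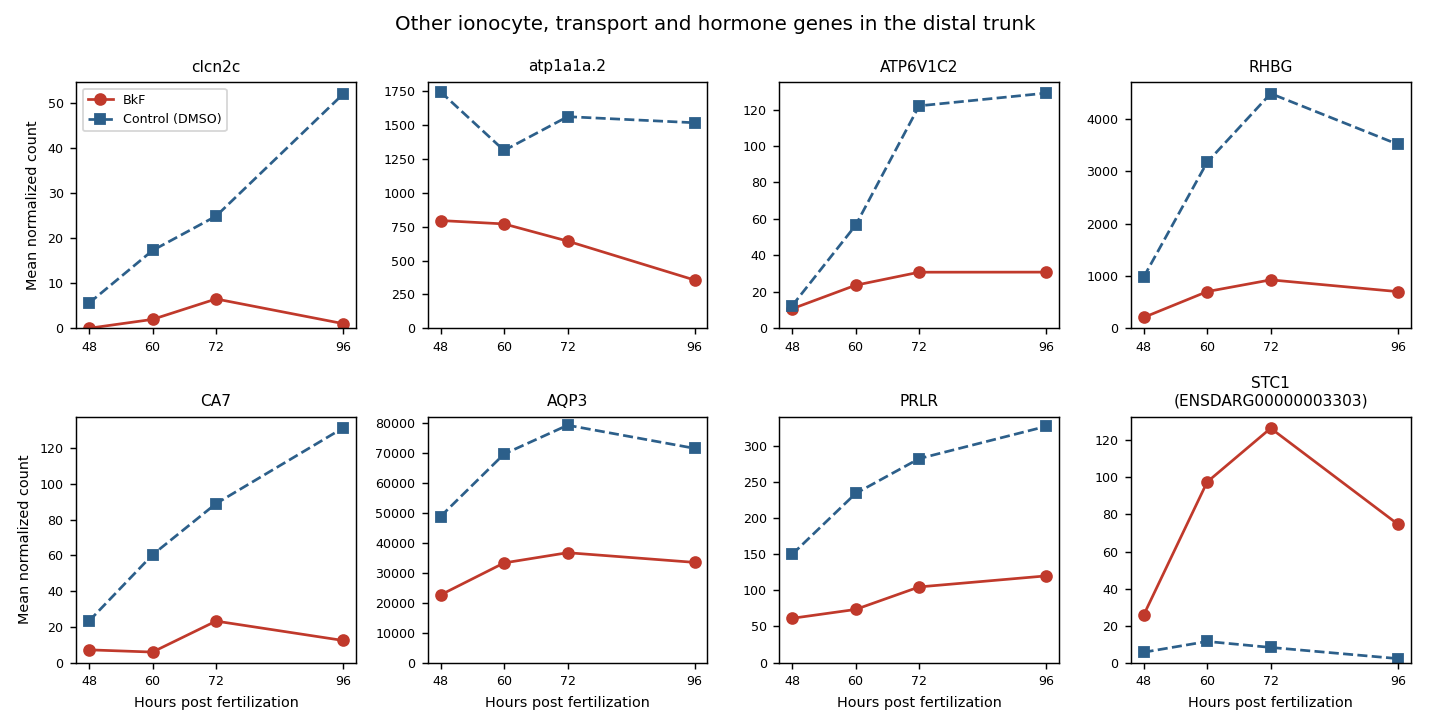
Mean normalized count (y axis, from 0) against hours post fertilization (x axis) of 8 further transport and hormone genes, with BkF as filled circles and solid lines and control (DMSO) as squares and dashed lines. Each point is the authors' mean over 4 replicates. STC1 (ENSDARG00000003303) reaches 126.5 in BkF tissue and at most 11.4 in control tissue, and the BkF line lies below the control line in the other 7 panels. The 8 are a selection and do not represent their lists. ATP6V1C2 was the 1 lower of 22 tested V-ATPase subunit genes, of which 15 were higher. Of all tested genes, 17.4% were lower and 16.5% higher.

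Of 13 tested hormone and receptor genes that act on ionocytes, 3 or 23.1% were lower and 4 or 30.8% higher, beside 17.4 and 16.5% of all tested genes. Stanniocalcin, the hormone that restrains calcium uptake in fish, is encoded by STC1 genes. STC1 (ENSDARG00000003303) had 25.6, 97.5, 126.5 and 74.8 in BkF tissue and 5.61, 11.4, 8.21 and 2.18 in control tissue. Every BkF value exceeded every control value, and the effect was 3.34 ± 0.44 (log2, SE; limma, adjusted p = 0.00349). It averaged 6.86 in control tissue and entered the test through its BkF values. The other identifier, STC1 (ENSDARG00000058476), was under the filter, at 1.96 to 2.80 in BkF tissue and 0 to 3.84 in control tissue. The endothelin gene edn1 was higher by 1.74 ± 0.29 (0.00763), with 153.9, 213.0, 314.5 and 326.4 in BkF tissue and 87.7, 70.9, 83.9 and 50.3 in control tissue.

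STC2, a stanniocalcin paralog, had 2995, 2531, 1643 and 2194 in BkF tissue and 7967, 6499, 6982 and 7273 in control tissue, and fell by 1.65 ± 0.13 (log2, SE; limma, adjusted p = 0.00066). PRLR, a receptor gene for prolactin, a hormone that promotes ion uptake in freshwater fish, had 61.3, 73.5, 104.7 and 119.9 in BkF tissue and 149.6, 233.8, 282.0 and 326.6 in control tissue. Levels were higher at each later time in both groups, without overlap between them, and PRLR fell by 1.45 ± 0.12 (0.000834). The paralog prlrb did not pass, at -0.18 ± 0.28 (0.65), and its groups overlapped.

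Markers of the surrounding skin moved as well. Of 21 tested keratinocyte and periderm genes 17 or 81.0% were lower and 1 or 4.76% was higher, beside 17.4 and 16.5% of all tested genes. The list summed to 1443459 to 3099607 in BkF tissue and to 6495044 to 8016283 in control tissue. The periderm keratin genes krt91 and krt4 had -3.31 ± 0.11 (log2, SE; limma, adjusted p = 7.84e-05) and -2.06 ± 0.26 (0.00302), the keratin gene cyt1l -2.61 ± 0.34 (0.00325), and the epithelial adhesion gene epcam -0.24 ± 0.06 (0.0298). With quantile normalization, which forces 1 distribution on all samples, krt4 had -0.78 (0.151). Of the list, krt93 alone was listed at 0, in the BkF samples of 48, 60 and 72 hpf. The part of these cells in the results on ionocyte genes was not tested.

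Kidney tubule cells use some of the same transporters. Of 11 tested pronephros genes none was lower, beside 17.4% of all tested genes, and 2 or 18.2% were higher, near the 16.5% of all tested genes. These were the phosphate transporter entries SLC20A1 (ENSDARG00000020114) at 1.49 ± 0.26 (log2, SE; limma, adjusted p = 0.00819) and SLC20A1 (ENSDARG00000010641) at 0.56 ± 0.05 (0.00119). Both were matched by the capitals name, and which is the listed slc20a1a is not settled. Of the 4 tested by their own symbols, none was lower or higher (median -0.34, log2). The list summed to 24027 to 29017 in BkF tissue and to 17164 to 19909 in control tissue. Most of this sum was SLC20A1 (ENSDARG00000010641) alone, at 18011 to 24451 in BkF tissue and 12504 to 15337 in control tissue. The cotransporter marker SLC12A3 of the list was near 0, at 1.02 to 4.25 in BkF tissue and 0.989 to 2.94 in control tissue, and CDH17 stood at 3.96 to 14.4 in BkF tissue and 10.3 to 28.8 in control tissue. Of the genes under the filter, pdzk1 reached 0 in BkF tissue. The part of these cells was not tested.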

How the data were processed

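Per the labels, each deposited signal value is the authors' mean of normalized counts over 4 biological replicates, from 32 raw libraries of stranded mRNA read as 100 bp single ends on a HiSeq 2500. Per the submitters' processing notes, the tools were FastQC, Trimmomatic, Salmon and DESeq2 and the build was Zv9. Versions and roles are not given in the sources used here. No count model was run on these means, and Salmon's sharing of reads between near copies makes single members of multigene families uncertain. The files of the samples hold the same values as the table of the series (8 of 8).

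The members and all gene lists were chosen with earlier results of these data known. Of 24345 identifiers, 18028 have a symbol, and a symbol shared by several is printed with its identifier. Genes with a mean of 10 or more were log2-transformed after adding 1 and fitted in limma (3.58.1; R 4.3.3) with an intensity trend, two-sided, with Benjamini-Hochberg adjustment over all 21950. The added 1 makes changes at low counts look smaller. The fits were tested on simulated data first. Those data were independent noise around each gene's mean with changes added, so they cannot show whether the p-values hold in these samples. The genes named are the 10 identifiers and up to 3 others per list with the largest effects past the threshold. Named as well are further genes of a cell type and the nearest patterns by Pearson r. PRLR, prlrb, AQP3, epcam, CDH17, KCNJ1 (ENSDARG00000002666), IGFBP5 (ENSDARG00000039264) and the genes under the filter were named after their values were seen. Of these, epcam and CDH17 come from the longer marker lists planned for their cell types. ATP1B1 (ENSDARG00000013144) and atp1a1a.3, which did not pass, were named outside these rules too. Alternatives were another pseudocount, 2 other filters on low values, 3 other scalings, a fit with no time block, leaving out each time point, a robust prior and no intensity trend. Plots used matplotlib 3.10.9 (Python 3.11.15). No coordinates or sequences were used.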

Additional observations from a re-analysis of the deposited data

How the results depend on the processing

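BkF and control samples of 1 time point were already compared within it by the time block. No paired analysis was possible because the 4 replicates of a condition carry no numbers in the labels and come as 1 mean. The calls of foxi3a, foxi3b, ca15a and SLC4A1 (ENSDARG00000024560) held in each alternative fitted, with foxi3a between -3.25 and -1.95 (log2). TRPV6 was also lost with no intensity trend (-1.92, adjusted p = 0.0592) and no time block (-1.92, 0.0788), and RHCG (ENSDARG00000007080) with no intensity trend (1.71, 0.0701) and no time block (1.71, 0.556). Without the time block RHCG (ENSDARG00000003203) had -1.02 (0.633) and SLC4A1 (ENSDARG00000012881) 0.79 (0.108), where the time course enters the residual. A pseudocount of 10 took TRPV6 to -1.06, and the same total took slc12a10.2 to -0.11. Leaving out a time point gave GCM2 -2.62 to -1.77, RHCG (ENSDARG00000003203) -1.18 to -0.72, RHCG (ENSDARG00000007080) 1.27 to 2.23, TRPV6 -2.38 to -1.44 and slc12a10.2 -0.35 to -0.27. TRPV6, GCM2 and foxi3a were not fitted where a mean of 50 was required, as theirs are lower. Over all genes, 3810 were lower and 3624 higher, with 2151 lower and 7946 higher at the same total. Leaving out a time point gave 1830 to 3480 lower and 1664 to 3427 higher. Higher ionocyte genes were 7 of 49, with 13 at the same total, 3 without the time block and 3 to 8 leaving out a time point, which left 10 to 19 lower. Of the 26 matched by their own symbols, 1 was higher and 14 were lower (median -0.51, log2). The 14 include the 6 members with a single identifier, which were chosen with earlier results known. Of all tested genes, 17.4% were lower and 16.5% higher. Interactions past the threshold were 3, with 7 unfiltered, 0 without the intensity trend and 0 to 1719 leaving out a time point. Slopes past it were 1, with 0 without the intensity trend, 2282 in BkF alone, 0 in controls alone and 0 to 3934 leaving out a time point. Signs of values that did not pass turned when a time point was left out, for the interactions of foxi3a (-2.35 to 0.21), ca15a (-0.72 to 0.76) and SLC4A1 (ENSDARG00000024560, -0.36 to 0.30) and the slope of SLC4A1 (ENSDARG00000012881, -0.62 to 0.63). In BkF alone so did the slopes of foxi3b (-0.32), GCM2 (-0.0043) and SLC4A1 (ENSDARG00000012881, 0.070), and in controls alone that of slc12a10.2 (0.0023). The cause of these shifts was not tested. Depth is unknown and replicate spread was not analysed, which limits what low genes such as TRPV6 and clcn2c can show.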
